A study of Mus musculus with 32 samples.

Results

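A set of 10 heat shock genes was examined: Hsf1, which encodes the transcription factor of the heat shock response, and Hspa1a, Hspa1b, Hspa8, Hspb1, Hsph1, Dnajb1, Hsp90aa1, Hspd1 and Hspe1, which encode chaperones and their helpers. The rule that picked them names the genes and uses no measured value, although earlier results of these data were known when it was set. Of these 10 genes, 8 were analysed here among the 21115 probe sets of the deposited liver arrays, and Hspa1b and Hspb1 were not analysed here. Each probe set stands for 1 Entrez gene. Liver RNA came from male C57Bl/6 offspring of C57Bl/6J parents, both of which received a high-fat (HF, 45% of energy from fat) or low-fat (LF, 9%) diet, begun 6 weeks before mating and kept through gestation and lactation. After weaning every pup, of either group, was fed HF, so the groups, named by parental and then offspring diet, were HF/HF and LF/HF. There were 9 HF/HF and 9 LF/HF mice of 28 weeks and 7 HF/HF and 7 LF/HF mice of 12 weeks, with 1 array per mouse. The litter and the hour of death of each mouse are not given in the sources used here, and the p-values treat each mouse as independent although the parents received the diet.

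Heat shock proteins are molecular chaperones that hold, fold and refold other proteins. In unstressed cells HSF1 is held inactive by chaperones, and when unfolded proteins draw these away, HSF1 forms trimers, binds heat shock elements in promoters and raises transcription of chaperone genes. In the liver, with its heavy secretion and oxidative metabolism, constitutive chaperones are made at all times. Inducible ones follow heat, feeding, oxidants and the daily cycle of body temperature.

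Heat shock elements are runs of the unit NGAAN and its reverse, and promoter stretches are shown for Hsph1, Hspe1 and Hspa1a. Promoters of 7 of the 10 genes were found in the RefSeq table (build GRCm38.p6), which gives 250 bases before to 50 bases after each annotated start. Those of Hspa8, Hsp90aa1 and Hsf1 were not found there. The search was for 2 adjoining units, GAANNTTC or TTCNNGAA, and for 3 units, in which a match of each of these overlaps so that the middle unit is shared. Each 2-unit motif is its own reverse complement and both 3-unit forms were searched, so both strands were covered, and every 3-unit match holds 2-unit matches within it. Of these 7 genes, 6 had a 2-unit match and 3 had a 3-unit match (Hsph1, Hspd1 and Hspe1), beside 15.1% and 0.603% of all 32851 promoters. A gene counted if any of its promoters matched, while these shares count each promoter singly. Hsph1, Dnajb1 and Hspd1 had 2 promoters each, and the first of Hspd1 held 0 matches. A match is a description of letters and was not tested as a binding site. In the stretches printed here, each on the strand of its gene and ending at the base before the annotated start, capitals mark the matches.
Hsph1, chr5:149636337-149636446, minus strand: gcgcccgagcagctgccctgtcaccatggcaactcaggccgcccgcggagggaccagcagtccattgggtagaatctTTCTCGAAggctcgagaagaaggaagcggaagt
Hspe1, chr1:55088008-55088147, plus strand: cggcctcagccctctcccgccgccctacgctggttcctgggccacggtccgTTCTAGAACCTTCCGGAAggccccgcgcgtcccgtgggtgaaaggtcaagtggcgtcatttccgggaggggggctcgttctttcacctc
Hspa1a, chr17:34972157-34972286, minus strand: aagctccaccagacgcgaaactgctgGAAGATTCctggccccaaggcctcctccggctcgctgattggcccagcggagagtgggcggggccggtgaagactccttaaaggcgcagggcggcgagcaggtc
The Hsph1 stretch held 1 match, at positions -33 to -26 from the start, and a 3-unit match followed the start at positions 36 to 48. A longer Hsph1 model begins further upstream, at chr5:149636498, so the stretch lies within the annotated gene. The run of the Hspe1 stretch, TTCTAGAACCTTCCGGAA at positions -89 to -72, joined 4 units. Hspd1 and Hspe1 are read away from each other and their annotated ends overlap by 96 bases, so the same run stood at positions -144 to -127 from the second Hspd1 start. The promoters of Hspa1a and Hspa1b, neighbouring copies on chromosome 17, differed at 4 of 300 bases. How far the probes of the copies, or of pseudogenes of the other members, could share signal was not tested.

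Hepatocyte markers (10 of 10 measured) had a mean log2 intensity of 12.2 to 12.4 in every mouse. The 10 skeletal muscle markers averaged 6.33 in LF/HF replicate 8 of 28 weeks, 4.52 in HF/HF replicate 3 and 9.17 in LF/HF replicate 1 of 12 weeks, and 2.22 to 2.88 in the other 29 mice. Array names fell into 2 series, each holding 3 to 5 mice of every group. Values within each series are given where a member is called, and not for genes of the other lists. Values below are log2 intensities, in which a difference of 1 is a doubling, and low intensities such as those of Hspa1a and Hsp90aa1 may lie near background, which was not analysed here. Since bulk liver was measured, fewer cells of a type and less RNA per cell cannot be told apart.

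The study's criterion for a differentially expressed gene is a fold change over 1.2 in either direction together with an unadjusted P below 0.05. By this criterion no member differed between HF/HF and LF/HF offspring at either age. Within the groups, Hsph1 was lower at 28 than at 12 weeks in both diet groups. Hsf1 was lower at 28 weeks in LF/HF offspring. With age, 4.1% of all probe sets met the criterion for HF/HF mice and 7.22% for LF/HF mice. Both LF/HF calls failed the correction (adjusted p = 0.0629 for Hsph1 and 0.130 for Hsf1 from limma). Neither met the criterion in array name series 2 alone. The HF/HF call of Hsph1 passed the correction (adjusted p = 0.0228 from limma), but not in 9 of 16 fits that each left out 1 mouse. The diet effect on Hsf1 differed between the ages by the same criterion, as it did for 4.19% of all probe sets. This difference failed the correction (adjusted p = 0.974 from limma) and did not meet the criterion in array name series 2 alone.

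**Figure D1:**
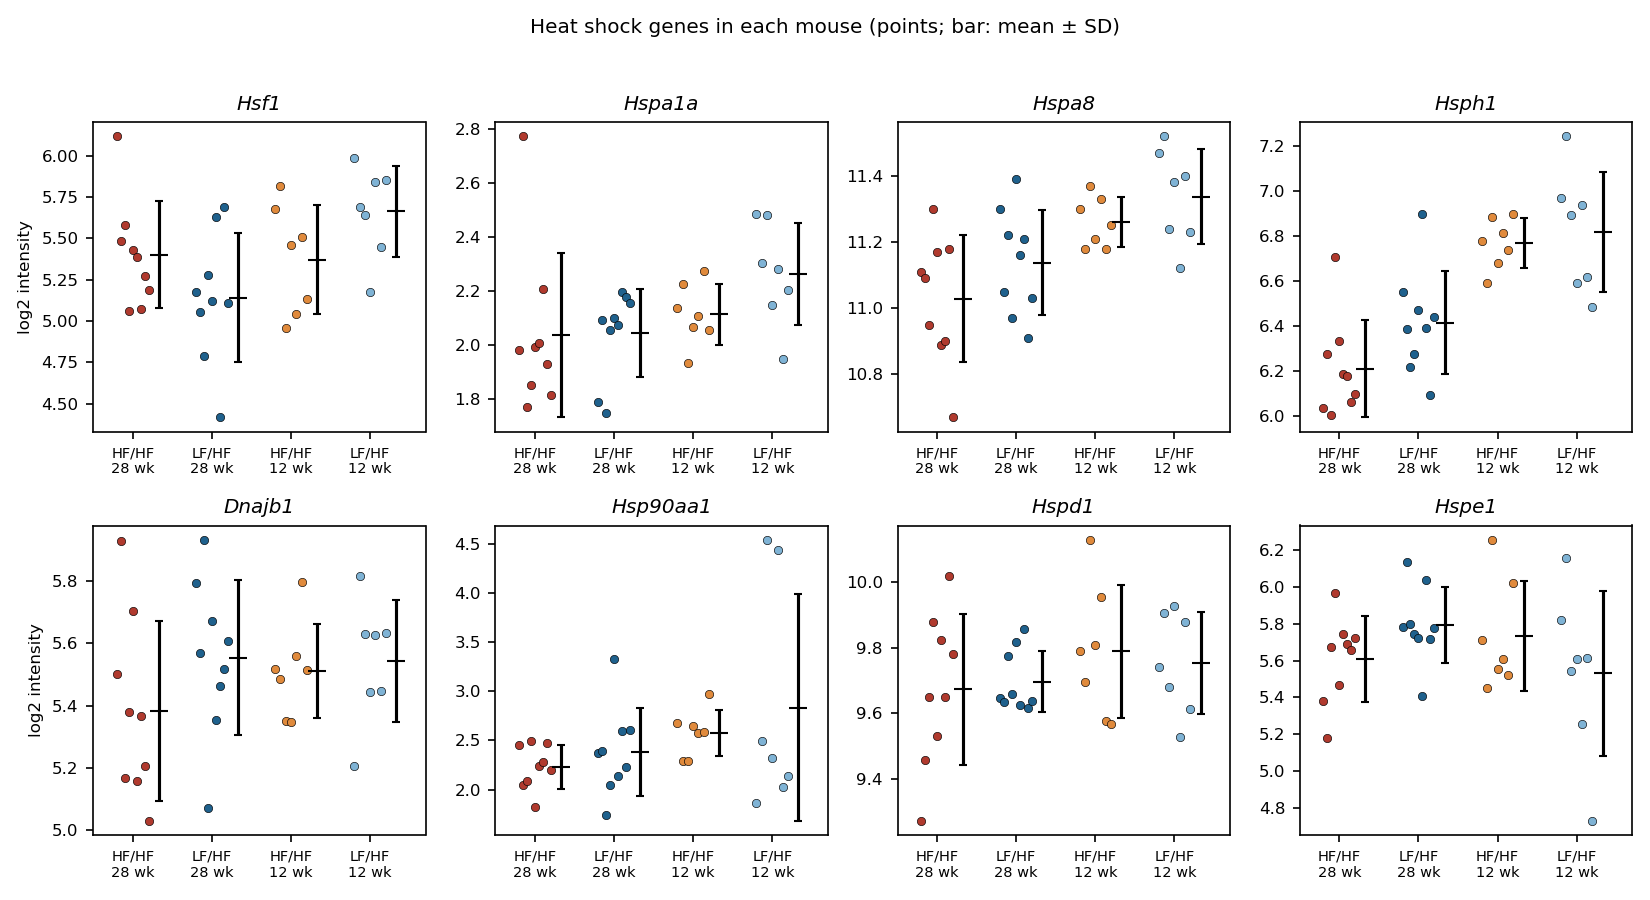
Log2 intensity of the 8 measured heat shock genes (y axis, own scale for each gene) in each mouse (points) of the 4 groups (x axis), with the group mean ± SD beside them. Hsph1 lies between 6.01 and 6.71 in HF/HF mice of 28 weeks and between 6.59 and 6.90 in HF/HF mice of 12 weeks, and Hsp90aa1 is above 3 in 3 LF/HF mice only.

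Hsf1, the regulator, had a lowest, median and highest value of 5.06, 5.39 and 6.12 in HF/HF offspring of 28 weeks, against 4.42, 5.12 and 5.69 in LF/HF offspring of that age. At 12 weeks these were 4.96, 5.46 and 5.82 in HF/HF offspring and 5.17, 5.69 and 5.99 in LF/HF offspring. The groups overlapped at both ages, although the mean of LF/HF mice was exceeded by 7 of 9 HF/HF mice at 28 weeks, and 5 of 7 were below it at 12 weeks. The log2 fold change (HF/HF over LF/HF) was 0.26 (SE 0.15, unadjusted P = 0.0944 from limma) at 28 weeks and -0.29 (SE 0.17, unadjusted P = 0.0967 from limma) at 12 weeks. The difference of these diet effects was 0.55 (SE 0.23, unadjusted P = 0.0211, adjusted p = 0.974 from limma), so Hsf1 met the study criterion there, as did 4.19% of all probe sets, and it failed the correction. It was 0.77 (SE 0.29, unadjusted P = 0.0178 from limma) in array name series 1 and 0.41 (SE 0.33, unadjusted P = 0.225 from limma) in series 2. With age, Hsf1 fell by 0.52 (SE 0.16, unadjusted P = 0.00271, adjusted p = 0.130 from limma) in LF/HF offspring, where 8 of 9 mice of 28 weeks lay below the 12-week mean. In HF/HF offspring the value was 0.03 (SE 0.16, unadjusted P = 0.854 from limma). The fall in LF/HF offspring was -0.69 (SE 0.21, unadjusted P = 0.00465 from limma) in series 1 and -0.37 (SE 0.23, unadjusted P = 0.124 from limma) in series 2.

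Clock genes were shifted in the same contrast as Hsf1, mostly short of the criterion, and their part in its difference was not tested. For the difference of the diet effects, 11 of 11 genes that peak near dusk were higher (median 0.46). Of those that peak near dawn, 4 of 4 were lower (median -0.60). The criterion was met by 0 dusk genes and 1 dawn gene, beside 4.19% of all probe sets. The immediate early gene Egr1 (1.05) and the J-proteins Dnajc9 (-0.36) and Dnajb14 (-0.31) also met it in this contrast. At 12 weeks 11 of 11 dusk genes were lower in HF/HF than in LF/HF offspring (median -0.46, 3 by the criterion: Usp2, Dbp and Per1) and 4 of 4 dawn genes were higher (median 0.52, Npas2 by the criterion). The mean of the dusk list was 4.92 to 6.32 in HF/HF and 5.25 to 6.66 in LF/HF mice of 12 weeks. At 28 weeks the dusk list was near balance, with 5 of 11 genes higher in HF/HF offspring (median -0.0047). Endothelial markers were also lower in HF/HF offspring of 12 weeks, 6 of 6 (median -0.21, Lyve1 by the criterion), in a comparison in which 2.92% of all probe sets met it. Their mean per mouse was 6.24 to 6.49 in HF/HF and 6.51 to 6.81 in LF/HF mice, and the groups did not overlap. Of single probe sets 0.0568% had groups that did not overlap in this comparison, a share not directly comparable with a mean of 6 genes.

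Hsph1 encodes the HSP110 protein, which exchanges the nucleotide on HSP70 and helps to take protein aggregates apart. Its lowest, median and highest values were 6.01, 6.18 and 6.71 in HF/HF offspring of 28 weeks, against 6.59, 6.78 and 6.90 in HF/HF offspring of 12 weeks. Of the 9 older mice 8 lay below all 7 younger ones, and replicate 4 overlapped them. The log2 fold change with age was -0.56 (SE 0.11, unadjusted P = 8.62e-06, adjusted p = 0.0228 from limma), a level of 0.679-fold. Hsph1 was the only member past the criterion in HF/HF offspring with age, 1 of 8 members beside 4.1% of all probe sets, and 1 of 10 probe sets (0.0474%) with an adjusted p under 0.05. The fall was -0.48 (SE 0.14, unadjusted P = 0.00397 from limma) in series 1 and -0.64 (SE 0.15, unadjusted P = 0.000361 from limma) in series 2. It kept the study criterion without any 1 mouse, but the adjusted p then ranged over 0.00422 to 0.0964. It was not under 0.05 without replicates 1, 3, 7 or 8 of 28 weeks or replicates 1, 3, 4, 5 or 7 of 12 weeks.

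In LF/HF offspring Hsph1 had a lowest, median and highest value of 6.09, 6.39 and 6.90 at 28 weeks and 6.48, 6.89 and 7.24 at 12 weeks. The ranges overlapped, and 7 of the 9 older mice lay below all 7 younger ones. Hsph1 fell by 0.40 (SE 0.11, unadjusted P = 0.000584, adjusted p = 0.0629 from limma), and in this comparison 2 of 8 members (Hsph1 and Hsf1) met the criterion beside 7.22% of all probe sets. At an adjusted p under 0.05 there were 0 of 8 members, beside 0.786%. The fall was -0.65 (SE 0.15, unadjusted P = 0.000376 from limma) in series 1 and -0.20 (SE 0.14, unadjusted P = 0.172 from limma) in series 2. The age effects of the diet groups differed by -0.15 (SE 0.15, unadjusted P = 0.315 from limma), which does not show that they were alike.

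Between diets at 28 weeks, the Hsph1 value for HF/HF over LF/HF offspring was -0.20 (SE 0.10, unadjusted P = 0.0490, adjusted p = 0.935 from limma), short of 1.2-fold. The mean of LF/HF mice exceeded 8 of the 9 HF/HF values, and 3 of these were under every LF/HF value. Without HF/HF replicate 4, the highest of its group, the value was -0.27 (unadjusted P = 0.00815 from limma) and met the criterion. At 12 weeks it was -0.05 (SE 0.11, unadjusted P = 0.662 from limma).

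Hspa8 encodes HSC70, the constitutive HSP70 of the cytosol. Its lowest, median and highest values were 10.67, 11.09 and 11.30 in HF/HF mice of 28 weeks, against 11.18, 11.25 and 11.37 in those of 12 weeks. In LF/HF mice they were 10.91, 11.16 and 11.39 at 28 weeks and 11.12, 11.38 and 11.52 at 12 weeks. Hspa8 was lower at 28 weeks, at -0.23 (SE 0.08, unadjusted P = 0.00470, adjusted p = 0.405 from limma) on the log2 scale in HF/HF offspring and -0.20 (SE 0.08, unadjusted P = 0.0136, adjusted p = 0.253 from limma) in LF/HF offspring, both short of 1.2-fold. In HF/HF offspring 7 of 9 older mice lay below all younger ones. Between diets it differed by -0.11 (SE 0.07, unadjusted P = 0.135 from limma) at 28 weeks and -0.08 (SE 0.08, unadjusted P = 0.347 from limma) at 12 weeks.

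**Figure D2:**
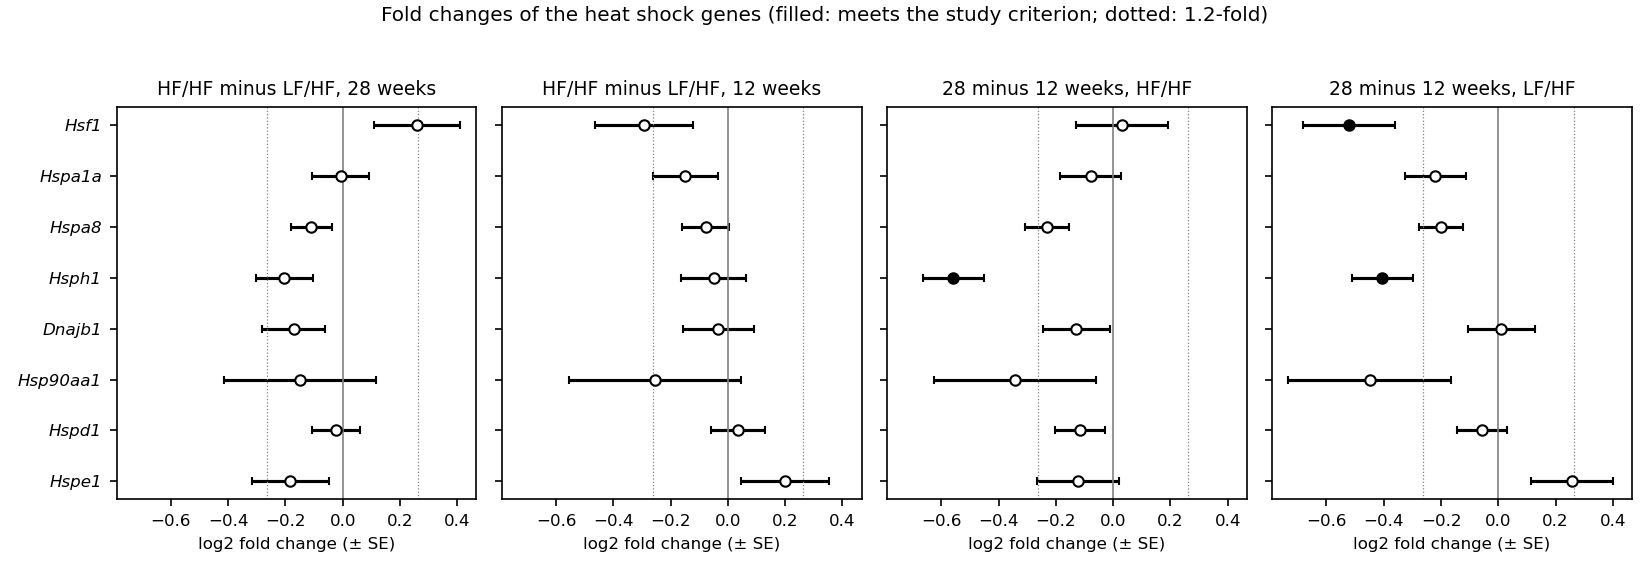
Log2 fold change ± SE (x axis) of each member (y axis) between the parental diets at each age (left pair of panels) and between the ages in each diet group (right pair). Only Hsph1 in both age comparisons and Hsf1 in LF/HF offspring are filled, which marks the study criterion, and dotted lines mark 1.2-fold.

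Hspa1a, the inducible HSP70, averaged 2.04 ± 0.31 (SD, n = 9) in HF/HF and 2.05 ± 0.16 (SD, n = 9) in LF/HF offspring of 28 weeks, and 2.12 ± 0.11 (SD, n = 7) in HF/HF and 2.26 ± 0.19 (SD, n = 7) in LF/HF offspring of 12 weeks. These intensities exceeded those of 28.9% of probe sets. HF/HF replicate 2 of 28 weeks stood at 2.78, and the other 31 mice at 1.75 to 2.49. The diet effect on the log2 scale was -0.0071 (SE 0.10, unadjusted P = 0.944 from limma) at 28 weeks and -0.15 (SE 0.11, unadjusted P = 0.197 from limma) at 12 weeks. With age it was -0.08 (SE 0.11, unadjusted P = 0.470 from limma) in HF/HF offspring. In LF/HF offspring it was -0.22 (SE 0.11, unadjusted P = 0.0472, adjusted p = 0.405 from limma, exact permutation p = 0.0271, two-sided), short of 1.2-fold, and all 9 older mice lay below the 12-week mean. Dnajb1, a J-protein that delivers clients to HSP70 and starts its ATP cycle, ranged over 5.03 to 5.93 in HF/HF and 5.07 to 5.93 in LF/HF offspring of 28 weeks. Between diets it differed by -0.17 (SE 0.11, unadjusted P = 0.126 from limma) at 28 weeks and -0.03 (SE 0.12, unadjusted P = 0.790 from limma) at 12 weeks. With age it was -0.13 (SE 0.12, unadjusted P = 0.279 from limma) in HF/HF and 0.0099 (SE 0.12, unadjusted P = 0.933 from limma) in LF/HF mice.

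Hsp90aa1, the inducible cytosolic HSP90, was set apart by single mice. It had a lowest, median and highest value of 1.82, 2.24 and 2.49 in HF/HF mice of 28 weeks, against 1.74, 2.38 and 3.33 in LF/HF mice. At 12 weeks these were 2.29, 2.59 and 2.97 in HF/HF mice and 1.86, 2.32 and 4.54 in LF/HF mice. Of the 32 mice 3 lay above 3, all of them LF/HF: replicate 5 of 28 weeks (3.33) and replicates 3 (4.54) and 5 (4.44) of 12 weeks. None of these were the mice with muscle markers. The spread of Hsp90aa1 within groups (SD 0.61) was above that of 98% of all genes, and the diet log2 fold changes were -0.15 (SE 0.27, unadjusted P = 0.576 from limma) at 28 weeks and -0.26 (SE 0.30, unadjusted P = 0.400 from limma) at 12 weeks. In HF/HF offspring, which held none of the high mice, all 9 mice of 28 weeks lay below the 12-week mean (difference -0.34, exact permutation p = 0.00944, two-sided), against unadjusted P = 0.235 in limma, which takes 1 spread per gene over all groups. The exact p is not adjusted over the members, and the mean level of Hsp90aa1 exceeded that of only 41.1% of probe sets. In LF/HF offspring the age value was -0.45 (SE 0.28, unadjusted P = 0.122 from limma).

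Hspd1 and Hspe1 encode HSP60 and HSP10, the barrel and the lid of the mitochondrial folding chamber. Hspd1 averaged 9.67 ± 0.23 (SD, n = 9) in HF/HF and 9.70 ± 0.09 (SD, n = 9) in LF/HF offspring of 28 weeks, and no comparison of it met the criterion (fold changes -0.12 to 0.04). Hspe1 had a lowest, median and highest value of 5.18, 5.67 and 5.97 in HF/HF and 5.41, 5.78 and 6.14 in LF/HF offspring of 28 weeks, and 5.45, 5.61 and 6.26 in HF/HF and 4.73, 5.61 and 6.15 in LF/HF offspring of 12 weeks. The diet effect on the log2 scale was -0.18 (SE 0.13, unadjusted P = 0.185 from limma) at 28 weeks and 0.20 (SE 0.15, unadjusted P = 0.202 from limma) at 12 weeks. The difference of these effects was -0.38 (SE 0.20, unadjusted P = 0.0700 from limma). With age Hspe1 was at -0.12 (SE 0.14, unadjusted P = 0.399 from limma) in HF/HF and 0.26 (SE 0.14, unadjusted P = 0.0821 from limma) in LF/HF mice.

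Across members, 7 of 8 were lower in HF/HF than in LF/HF offspring of 28 weeks (median log2 fold change -0.13), and 0 met the criterion, beside 2.15% of all probe sets. At 12 weeks 6 of 8 were lower (median -0.06), and 0 met it, beside 2.92%. At an unadjusted P under 0.05, without the fold limit, only Hsph1 of 28 weeks passed in a diet comparison, and 0 members passed the adjusted p at either age, as did 0 of all probe sets. All probe sets together were near balance, with 48.6% higher in HF/HF offspring at 28 weeks and 50.2% at 12 weeks.

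The values of the members were also related to each other across the 32 mice, after each group's mean was removed. Of 28 pairs, 3 passed an adjusted p of 0.05 by permutation within groups, and they joined Hspd1, Hspe1 and Hsf1. Hspd1 and Hspe1, the divergent pair of genes shown above, varied together (Pearson r = 0.55, permutation p = 0.00105, adjusted p = 0.0147, Spearman rho = 0.60, permutation p = 0.00091, adjusted p = 0.00849). Both ran against Hsf1. For Hspd1 and Hsf1 r was -0.63 (permutation p = 7e-05, adjusted p = 0.00196) and rho -0.64 (permutation p = 0.00023, adjusted p = 0.00448). For Hspe1 and Hsf1 r was -0.49 (permutation p = 0.00325, adjusted p = 0.0303) and rho -0.61 (permutation p = 0.00032, adjusted p = 0.00448). Within the mice of 28 weeks and those of 12 weeks, r was 0.60 and 0.55 for Hspd1 with Hspe1, -0.67 and -0.59 for Hspd1 with Hsf1, and -0.65 and -0.41 for Hspe1 with Hsf1. Without the 2 mice farthest from the median of the first gene, r was 0.46, -0.49 and -0.47 with adjusted p-values of 0.137, 0.0834 and 0.137 (permutation), so 0 of the 3 pairs kept the adjusted call and all 3 kept their sign. For Hspe1 with Hsf1 the r moved little, and its unadjusted permutation p was 0.0124. The mice farthest from the Hspd1 median were HF/HF replicate 3 of 12 weeks (10.13), which had muscle markers, and HF/HF replicate 1 of 28 weeks (9.27). The latter had the highest Hsf1 value (6.12). Within array name series 1 and 2 (16 arrays each, with the group means of that series removed) r was 0.76 and 0.43 for Hspd1 with Hspe1, -0.84 and -0.58 for Hspd1 with Hsf1, and -0.59 and -0.68 for Hspe1 with Hsf1, given without a test.

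**Figure D3:**
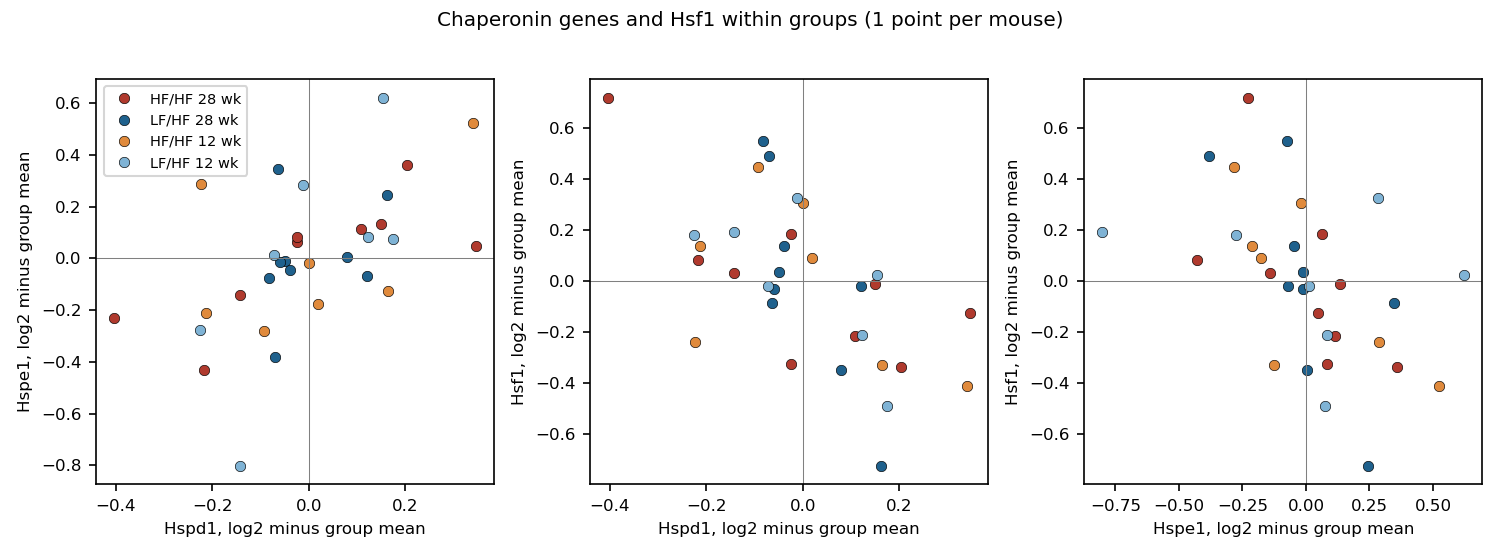
Log2 intensity minus the group mean of Hspe1 against Hspd1 (left), Hsf1 against Hspd1 (middle) and Hsf1 against Hspe1 (right), 1 point per mouse coloured by group. The left cloud slopes upward (r = 0.55) and the others downward (r = -0.63 and -0.49).

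Genes of a pattern like that of Hspa1a, taken in place of Hspa1b, were sought by Pearson r across the 32 mice with group means removed. Predicted genes and olfactory and vomeronasal receptor genes were left out of this ranking and of that for Hsph1 below. The 8 highest were 7 immunoglobulin variable segments, led by Igkv12-46 (r = 0.77) and Igkv12-41 (r = 0.77), and Brd2 (r = 0.63), a reader of acetylated histones. The 5 lowest were Xpc (r = -0.67), which recognises DNA damage, Serpinb6e (-0.63), Ren1 (-0.62), Lrrc7 (-0.61) and Crygf (-0.61). The 2 mice farthest from the Hspa1a median were HF/HF replicate 2 of 28 weeks and LF/HF replicate 1 of 12 weeks, which had muscle markers. Without them r was 0.56 for Igkv12-41, 0.39 for Igkv12-46 and 0.36 for Brd2, and it was 0.032 to 0.29 for the other 5 immunoglobulin segments. The same measure for Hsph1, chosen after its values were seen, was highest for Stip1 (r = 0.62), which encodes the co-chaperone that bridges HSP70 and HSP90, and was 0.66 without the 2 mice farthest from the Hsph1 median. The immediate early gene Fos was among the 8 highest (r = 0.59), and Pex16 (r = -0.74), needed to form peroxisomes, was the lowest.

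The wider chaperone families were set beside the members from lists drawn up by function. The lists of HSP70, J-proteins, HSP90 and mitochondrial chaperones include members. Some genes, such as Cacybp and Dnaja1, stand on more than 1 list, so counts of different lists are not independent. Among 16 measured targets of HSF1 in textbooks, 12 were lower in HF/HF than in LF/HF offspring of 28 weeks (median -0.07), 3 of them by the criterion: Mrpl18 (-0.28), a mitochondrial ribosomal protein, Cacybp (-0.27) and the J-protein Dnaja1 (-0.35), beside 2.15% of all probe sets. At 12 weeks 8 of the 16 were lower and 8 higher, and 0 met the criterion, beside 2.92%. All 14 subunits of TRiC, the cytosolic chaperonin, and of its partner prefoldin were lower in HF/HF than in LF/HF offspring of 28 weeks (median -0.08), against 7 lower and 7 higher at 12 weeks (median -0.0046), and 0 met the criterion at either age. Of 17 J-proteins, 13 were lower in HF/HF offspring at each age, 1 of them by the criterion at 28 weeks (Dnaja1) and 0 at 12 weeks. Of 20 genes of HSP90 and its co-chaperones, Cacybp and Rpap3 (-0.30) met it at 28 weeks. At 12 weeks Ppid (-0.37) and the glucocorticoid-induced Fkbp5 (-0.43) were lower in HF/HF offspring and Tsc1 (0.32) was higher, all by the criterion. Of 16 genes of HSP70 and its exchange factors Bag2 was lower in HF/HF offspring of 12 weeks (-0.32), and 0 of 8 small heat shock proteins met the criterion in any comparison.

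The criterion was met with age by 4.1% of all probe sets for HF/HF mice and by 7.22% for LF/HF mice. In HF/HF offspring 19 of 20 chaperone genes of the endoplasmic reticulum were lower (median -0.24), 6 of them by the criterion, among them Manf (-0.55), Creld2 (-0.90) and Hspa5 (-0.39), which encodes the HSP70 of that compartment. In LF/HF offspring 16 of 20 were lower (median -0.13), with Ppib (-0.28) and Hyou1 (-0.54) among 3 that fell by the criterion and Dnajb9 (0.36) the 1 that rose. Of the 17 J-proteins, Dnajc9 (0.28) and Dnajb4 (0.27) rose and Dnaja4 (-0.38) fell by the criterion in LF/HF offspring, and 0 met it in HF/HF offspring. Dnajc19 (0.27) of the mitochondrial list rose in LF/HF offspring. Stip1 fell with age in HF/HF offspring (-0.38, SE 0.09, unadjusted P = 0.000253, adjusted p = 0.191 from limma), as did Ahsa2 (-0.31), a stimulator of HSP90 ATPase, and Clpx (-0.49) of the mitochondrial matrix. Fkbp5 rose (0.35). Over all probe sets the median age change was 0.0032 for HF/HF and 0.01 for LF/HF mice.

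**Figure D4:**
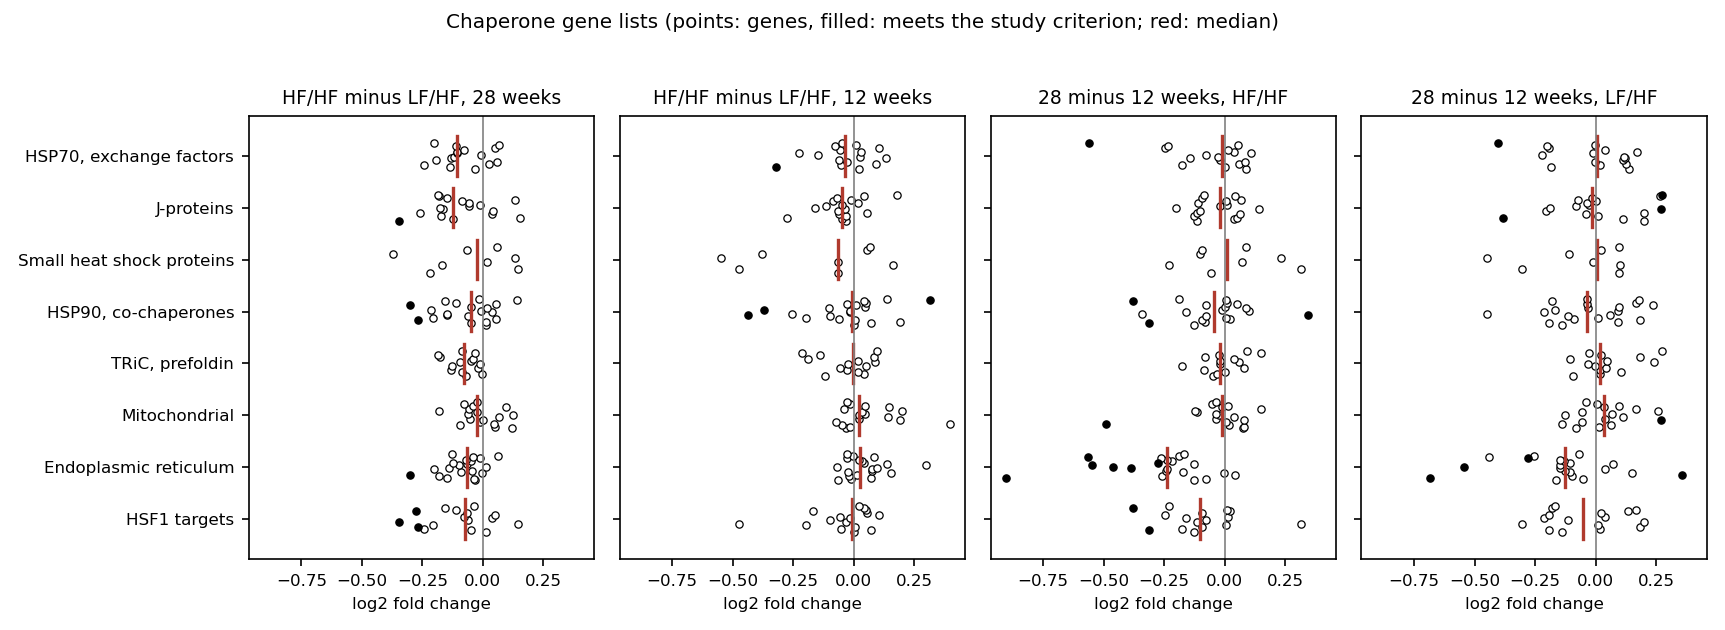
Log2 fold change (x axis) of each gene of 8 chaperone lists (rows) in the diet comparisons at each age and the age comparisons in each diet group. Points are genes, filled where they meet the study criterion, and red lines are list medians, which lie at -0.24 for the endoplasmic reticulum list with age in HF/HF offspring.

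Other genes moved with age beside Hsph1, and their part in its change was not tested. Of 14 immediate early genes, which respond to handling, feeding and stress within minutes, 12 were lower at 28 weeks in HF/HF (6 by the criterion, Egr1 -1.41) and 13 in LF/HF offspring (7 by the criterion, Egr1 -2.46), beside 4.1% and 7.22% of all probe sets. Their mean level per mouse was 3.92 to 4.69 in HF/HF and 3.88 to 4.26 in LF/HF mice of 28 weeks, and 4.22 to 4.89 in HF/HF and 4.21 to 4.89 in LF/HF mice of 12 weeks. Of the clock genes, 4 of 4 that peak near dawn were lower and 11 of 11 that peak near dusk were higher at 28 weeks in HF/HF offspring, 4 and 7 of them by the criterion, beside 4.1% of all probe sets. In LF/HF offspring 3 of 4 dawn genes were lower and 10 of 11 dusk genes higher at 28 weeks, with 0 past the criterion in either list. The dusk list spanned 5.76 to 6.83 in HF/HF mice of 28 weeks and 4.92 to 6.32 in those of 12 weeks. Endothelial markers (6 of 6) and Kupffer cell markers (6 of 6 measured) were lower at 28 weeks in both diet groups. In HF/HF offspring 1 endothelial and 2 Kupffer markers met the criterion, beside 4.1% of all probe sets. In LF/HF offspring 3 and 1 did, beside 7.22%. In LF/HF mice the endothelial mean was 5.84 to 6.56 at 28 and 6.51 to 6.81 at 12 weeks, and the Kupffer mean 5.50 to 6.64 and 6.14 to 6.92. The endothelial mean was 5.98 to 6.36 in HF/HF mice of 28 weeks and 6.24 to 6.49 in those of 12 weeks, and the Kupffer mean was 5.62 to 6.39 in HF/HF mice of 28 weeks and 5.94 to 6.93 in those of 12 weeks.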

How the data were processed

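Liver RNA (100 ng) was labelled and put by the authors on whole-transcript Affymetrix arrays (Mouse Gene 1.1 ST), who normalised the signal by the robust multichip average (RMA) in the MADMAX pipeline and deposited 1 linear intensity per probe set. The versions of these tools are not given in the sources used here. The 2 deposited tables differed by at most 7.15e-10 on the log2 scale. The authors' 12 comparison columns (fold changes, p-values and q-values) were not used, and 0 other columns held samples. A single gene name stood on 2 rows. The log2 of each intensity was tested in limma 3.58.1 (R 4.3.3) with 1 mean per group over 32 arrays and eBayes with an intensity trend, with no filter on level. P-values were adjusted by Benjamini-Hochberg over 21115 probe sets, and the step was tested on simulated data. Exact permutation tests (two-sided) and 100000 permutations within groups for the correlations used scipy in Python. The paper describes its test as paired, and the pairs are not given here. Samples were grouped by label. The members and lists were chosen with earlier results of these data known. Named genes were the 8 measured members, from each other list at most 3 genes of smallest P past the criterion in a comparison, and the 8 highest and 5 lowest correlations. Predicted genes and olfactory and vomeronasal receptor genes were left out of the ranking of correlations. Pex16, Fos, and the counts of dim or high mice were chosen after the values were seen. Promoters and gene coordinates are from RefSeq (GRCm38.p6). The number of arrays limits the precision. Alternatives were the prior, the arrays used, a replicate block, a level filter, cyclic loess, array weights, thresholds, array name series, mice with muscle markers and each mouse left out.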

Additional observations from a re-analysis of the deposited data

Results flagged for a closer look

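A total of 3 mice stood apart from their group in 1 gene each, by a gap to the nearest other mouse that exceeded Dixon's limit, among 32 groups examined (8 genes in 4 groups). Chance sets apart about 1 in 20 groups. All 3 were the highest of the HF/HF offspring of 28 weeks: replicate 2 in Hspa1a (2.78, with the next mouse at 2.21), replicate 4 in Hsph1 (6.71, next 6.33) and replicate 1 in Hsf1 (6.12, next 5.58). The diet effect on Hsf1 differed between 28 and 12 weeks by 0.55 on the log2 scale in the test of that difference (unadjusted P = 0.0211, adjusted p = 0.974 from limma).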

How the results depend on the processing

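Of 1317 values under alternatives, 1198 kept their direction and side of the threshold or were counts that changed little or not at all. Another 31 newly met the threshold, 6 no longer did, 54 changed sign and 28 counts moved by more. No value that changed sign met the study criterion, and the largest of the original values among them was 0.26. The fall of Hsph1 with age in HF/HF offspring met the study criterion in every alternative fit, and the calls of Hsph1 and Hsf1 with age in LF/HF offspring and of the difference of the diet effects on Hsf1 did so in all but array name series 2 alone. Replicate numbers did not pair the mice (correlations of -0.10 to 0.10 at 28 and -0.16 to 0.10 at 12 weeks, 1 pair over 0.1 at each age). With the replicate block the fall of Hsph1 in HF/HF offspring was -0.52 with an adjusted p of 0.196 from limma, and no count of members called moved.

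In array name series 1 alone, 1 member met the criterion between diets at 28 weeks (Hsf1, 0.48) and 2 with age in HF/HF offspring. With age in LF/HF offspring 3 did, Hspa1a (-0.47) beside Hsph1 and Hsf1. Values turned to 0.14 for Hspa1a between diets at 28 weeks, -0.096 for Hspe1 between diets at 12 weeks, 0.073 for Hspa8, 0.18 for Hsph1 and 0.013 for Dnajb1 in the difference of the diet effects, -0.0031 for Hspe1 with age in LF/HF, and 0.0032 for Hspa1a and 0.069 for Dnajb1 with age in HF/HF offspring. In series 2 alone, 1 member met it between diets at 12 weeks (Hspe1, 0.41), 1 in the difference of the diet effects (Hsph1, -0.44, in place of Hsf1), 1 with age in LF/HF (Hspe1, 0.43) and 3 with age in HF/HF offspring. There the values turned to 0.077 for Hspd1 between diets at 28 weeks, and at 12 weeks to 0.0010 for Hspa1a, 0.16 for Hsph1, 0.086 for Dnajb1 and -0.038 for Hspd1. They turned to -0.16 for Hspa1a, -0.17 for Hsp90aa1 and 0.12 for Hspd1 in the difference of the diet effects, to 0.0066 for Hspa1a and -0.052 for Dnajb1 with age in LF/HF, and to 0.063 for Hspd1 with age in HF/HF offspring. Without the mice with muscle markers, 1 member (Hsf1, 0.33) met the criterion between diets at 28 weeks and 3 with age in LF/HF offspring (Hspe1, 0.32, beside Hsph1 and Hsf1), and values turned to 0.0094 for Hspa1a between diets at 28 weeks, -0.024 for Hspd1 at 12 weeks, -0.042 for Dnajb1 with age in LF/HF and -0.039 for Hsf1 with age in HF/HF offspring. Array weights gave 2 members in the difference of the diet effects and 4 with age in LF/HF offspring, and turned Hspa1a between diets at 28 weeks to 0.0094. At an unadjusted P under 0.01 with no fold limit, 0 members passed in the difference of the diet effects and 2 with age in HF/HF offspring. At an adjusted p under 0.05, 0 passed in the difference of the diet effects and 0 with age in LF/HF offspring. With age in HF/HF offspring, 2 passed with only the arrays of both groups and 2 by the exact permutation test, an alternative chosen after seeing the data, in both cases Hsph1 and Hsp90aa1. Without the 2 mice farthest from the median, 0 pairs of members passed the adjusted p. The cause of these shifts was not tested, and a fit of 1 series alone holds fewer mice.

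Leaving out each mouse gave 0 to 1 members called between diets at 28 weeks, 0 to 1 at 12 weeks, 1 to 2 in the difference of the diet effects, 2 to 4 with age in LF/HF and 1 to 2 with age in HF/HF offspring. At 28 weeks Hsph1 was called without HF/HF replicate 4 (-0.27) and Hsf1 without LF/HF replicate 6 (0.32) or 8 (0.33). At 12 weeks Hsf1 was called without HF/HF replicate 2 (-0.37) or LF/HF replicate 4 (-0.37) and Hspe1 without LF/HF replicate 2 (0.30). Hspe1 was called in the difference of the diet effects without HF/HF replicate 4 (-0.43) or LF/HF replicate 6 (-0.43) of 28 weeks or HF/HF replicate 2 (-0.43) or LF/HF replicate 1 (-0.43) or 2 (-0.48) of 12 weeks. With age in LF/HF offspring it was called without replicate 6 of 28 weeks (0.31) or replicate 1 (0.31) or 2 (0.36) of 12 weeks, Hsp90aa1 without replicate 1 of 12 weeks (-0.61) and Hspa1a without replicate 6 of 12 weeks (-0.27). Hspa8 was called with age in HF/HF offspring without replicate 4 of 28 weeks (-0.27). Values that changed sign ranged, between diets at 28 weeks, over -0.099 to 0.026 for Hspa1a and -0.067 to 0.027 for Hspd1. At 12 weeks the ranges were -0.11 to 0.021 for Hsph1, -0.089 to 0.012 for Dnajb1, -0.42 to 0.029 for Hsp90aa1 and -0.022 to 0.073 for Hspd1. They were -0.067 to 0.012 for Hspa8 and -0.18 to 0.27 for Hsp90aa1 in the difference of the diet effects, -0.046 to 0.070 for Dnajb1 with age in LF/HF and -0.060 to 0.10 for Hsf1 with age in HF/HF offspring.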
